A study of Homo sapiens with 4 samples.

Results

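The genes described here are 7 small nucleolar RNA (snoRNA) host genes, GAS5, SNHG1, SNHG5, SNHG6, SNHG8, SNHG12 and SNHG15, and the long noncoding RNAs MALAT1, NEAT1 and NORAD. They were taken from the table by gene symbol, and all 10 were found among the 13957 genes of the authors' deposited table. RNA came from MDA-MB-231 Fluc cells, a triple-negative breast cancer cell line that carries a firefly luciferase gene, after 2 h in 50 μM cordycepin (2 samples) or in the vehicle DMSO (2 samples). Cordycepin is 3′ deoxyadenosine, an adenosine analogue whose triphosphate is known to inhibit polyadenylation. Total RNA was depleted of ribosomal RNA, made into stranded libraries and sequenced as 75 bp paired-end reads. Both groups consist of the same engineered line, and the labels do not say whether the samples of a group were separate cultures.

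The value used for each gene is the authors' mean log2 CPM, which is the read count scaled to library size (CPM) on a log2 scale, taken over the libraries of both groups together. It has no SD and no replicate number, and the depth of each library is unknown. The table gives the effect of cordycepin only as the authors' own comparison, which was not used, so cordycepin and DMSO are not compared here and no test was made. What follows describes how much of each RNA these cells held, and what its gene contains. Where 2 members are set in order, whether the gap exceeds the spread between libraries was not tested.

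snoRNA host genes are transcribed by RNA polymerase II, spliced and polyadenylated. Their snoRNAs are trimmed out of the excised introns and guide the chemical modification of ribosomal and other RNAs, while the spliced host RNA of several of these genes is known to be degraded by nonsense-mediated decay during translation. MALAT1 is a nuclear RNA of splicing speckles and NEAT1 is the scaffold of paraspeckles, and the long forms of both end not in a poly(A) tail made in the usual way but at a cut by RNase P in front of a tRNA-like small RNA. NORAD is an unspliced, polyadenylated RNA that acts mainly in the cytoplasm by binding Pumilio proteins.

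The snoRNAs show what the hosts carry. GENCODE release 44, which uses the build of the table (hg38), places 16 snoRNA genes within the hosts on the same strand. It places 7 in SNHG1, 5 in SNHG12, 1 each in SNHG5, SNHG6, SNHG8 and SNHG15, and 0 in GAS5. In SNHG12, SNORA16A is counted under separate overlapping entries of 135 and 137 bases. MALAT1, NEAT1 and NORAD hold 0. RefSeq lists 29 within the hosts, of which 11 are in GAS5 (SNORD44, SNORD47, SNORD74, SNORD75, SNORD76, SNORD77, SNORD78, SNORD79, SNORD80, SNORD81 and SNORA103), 9 in SNHG1 and 4 in SNHG12. The names beginning with SNORD mark box C/D snoRNAs, which guide ribose methylation, and those beginning with SNORA mark box H/ACA snoRNAs, which guide the conversion of uridine to pseudouridine. GAS5 and SNHG1 carry chiefly the former, and SNHG12 chiefly the latter. The following snoRNAs of SNHG1, SNHG5, SNHG8, SNHG12 and SNHG15, read 5′ to 3′ from hg38, are examples of both kinds. None is shown for GAS5 or SNHG6, and release of the snoRNAs was not measured here. Capitals mark the C box (TGATGA) and the D box (CTGA) where these letters were found, or the ACA box.

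SNORD25, in SNHG1 (chr11:62855564-62855632, minus strand): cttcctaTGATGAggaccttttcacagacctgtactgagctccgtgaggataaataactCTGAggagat
SNORD50B, in SNHG5 (chr6:85677589-85677658, minus strand): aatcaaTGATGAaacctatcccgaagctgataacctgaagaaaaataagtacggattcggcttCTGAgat
SNORD99, in SNHG12 (chr1:28578749-28578822, minus strand): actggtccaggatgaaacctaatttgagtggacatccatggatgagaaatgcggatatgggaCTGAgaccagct
SNORA24, in SNHG8 (chr4:118279190-118279320, plus strand): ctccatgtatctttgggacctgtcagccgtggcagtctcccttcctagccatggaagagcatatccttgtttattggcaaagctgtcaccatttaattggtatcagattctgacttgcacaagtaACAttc
SNORA61, in SNHG12 (chr1:28579764-28579893, minus strand): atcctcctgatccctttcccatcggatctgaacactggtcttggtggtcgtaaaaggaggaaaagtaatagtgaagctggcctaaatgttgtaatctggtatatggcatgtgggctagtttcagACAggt
SNORA9, in SNHG15 (chr7:44985378-44985510, minus strand): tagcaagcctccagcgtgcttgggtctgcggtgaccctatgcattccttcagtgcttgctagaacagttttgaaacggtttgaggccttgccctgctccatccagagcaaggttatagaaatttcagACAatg

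In all 3 box H/ACA snoRNAs shown, the ACA box lies 3 bases before the 3′ end. The 16 GENCODE snoRNAs are 69 to 137 bases long, and 15 of them lie wholly inside an intron of the host's canonical transcript. The exception is SNORA9, which lies inside an exon of the canonical SNHG15 transcript. None of the 16 has a row of its own in the table (0 of 16), so the values below are those of the host genes. When the exons of all annotated transcripts of a host are merged, 15 of the 16 snoRNAs fall inside them, because some transcripts retain the introns. SNORD99 in SNHG12 is the exception. A read from such a snoRNA or from an unspliced host lies inside the merged exons of the host, and its part in the host's value was not tested.

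**Figure D1:**
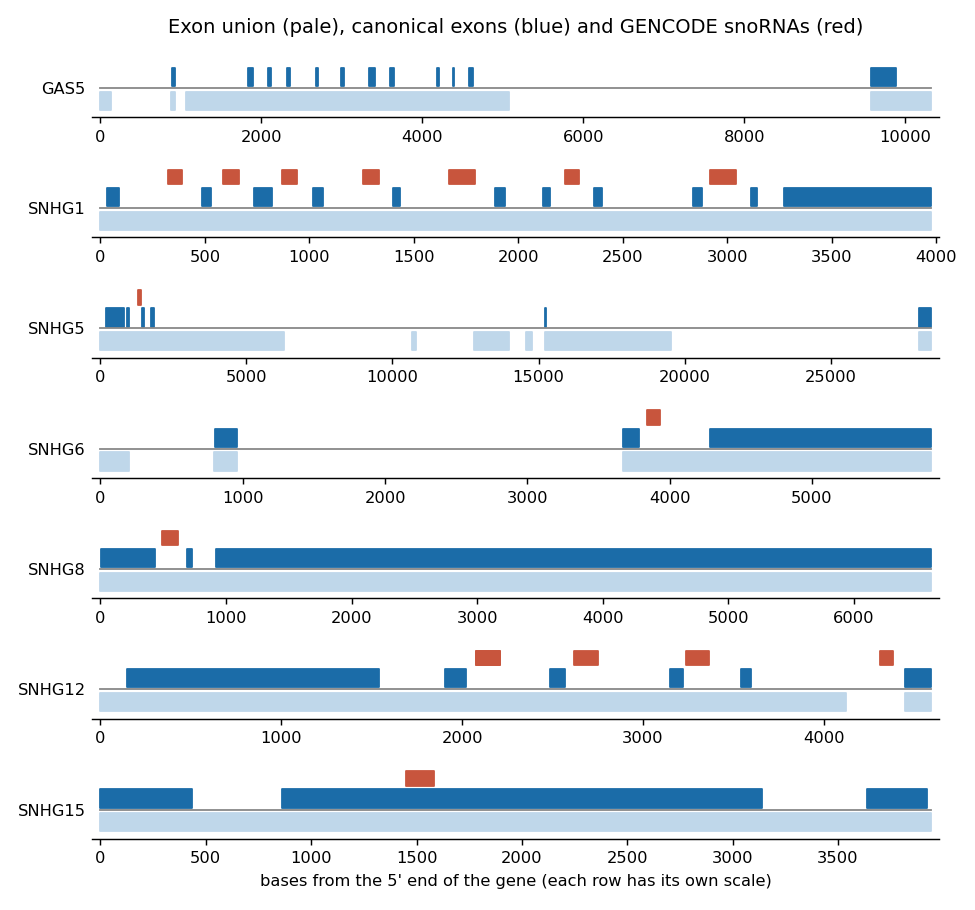
Maps of the 7 snoRNA host genes, with the distance in bases from the 5′ end of the gene on each horizontal axis. Pale bars are the merged exons of all GENCODE transcripts, blue bars are the exons of the canonical transcript and red bars are the 16 GENCODE snoRNAs, which lie between canonical exons except in SNHG15.

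The same maps show why the length of a host is not a simple quantity. GAS5 (chr1:173858559-173868882, minus strand) has 91 annotated transcripts and 12 exons in the canonical one, which is 768 bases long, whereas the length listed by the authors is 4842 bases. SNHG5 (chr6:85650491-85678932, minus strand) has 89 transcripts, a canonical length of 1316 bases and a listed length of 12604 bases, which is 9.58 times as long. SNHG1 (chr11:62851984-62855953, minus strand) has 80 transcripts and 11 canonical exons, with 1162 bases in the canonical transcript and 3970 listed. The gap is smaller for SNHG12 (chr1:28578538-28583132, minus strand), at 1871 and 4266 bases, and for SNHG15 (chr7:44983023-44986961, minus strand), at 2998 and 3939 bases. SNHG8 (chr4:118278709-118285316, plus strand) has 6166 canonical and 6608 listed bases. SNHG6 (chr8:66921684-66926398, minus strand) has a listed length of 1247 bases, shorter than its canonical transcript of 1821 bases. By contrast MALAT1 (chr11:65497688-65506516, plus strand), NEAT1 (chr11:65422774-65445540, plus strand) and NORAD (chr20:36045618-36051018, minus strand) each have a single canonical exon. Their listed lengths are 8829, 22767 and 5401 bases, beside canonical lengths of 10434, 22743 and 5401 bases.

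As a share of reads, MALAT1, NEAT1 and NORAD took far more than the 7 hosts. They together had 2947 CPM, or 0.295% of reads, and the hosts together had 338.6 CPM, a ratio of 8.70. Within the 790 genes that GENCODE classes as lncRNA, MALAT1, NEAT1 and NORAD made up 17.3% of all CPM and the hosts 1.99%. MALAT1 had a mean of 10.87 log2 CPM (1873 CPM), and 99.8% of all genes had a lower share of reads. NORAD had 9.11 log2 CPM (551 CPM) and NEAT1 9.03 log2 CPM (523 CPM), with 98.4% and 98.2% of genes lower. The hosts spanned 2.40 on the log2 scale, from SNHG1 at 6.62 log2 CPM (98.2 CPM) down to SNHG15 at 4.21 log2 CPM (18.6 CPM). Between these lay SNHG5 at 6.30, GAS5 at 5.99, SNHG6 at 4.96, SNHG8 at 4.84 and SNHG12 at 4.29 log2 CPM. SNHG1, SNHG5 and GAS5 stood in the upper part of the table, with 83.3%, 78.8% and 74.1% of genes lower, whereas SNHG6, SNHG8, SNHG12 and SNHG15 were near its middle, with 56.4%, 54.6%, 45.1% and 43.8% lower. The median gene of the table had 4.58 log2 CPM and the median lncRNA 1.87, so each of the 10 RNAs took a larger share of reads than the median lncRNA.

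**Figure D2:**
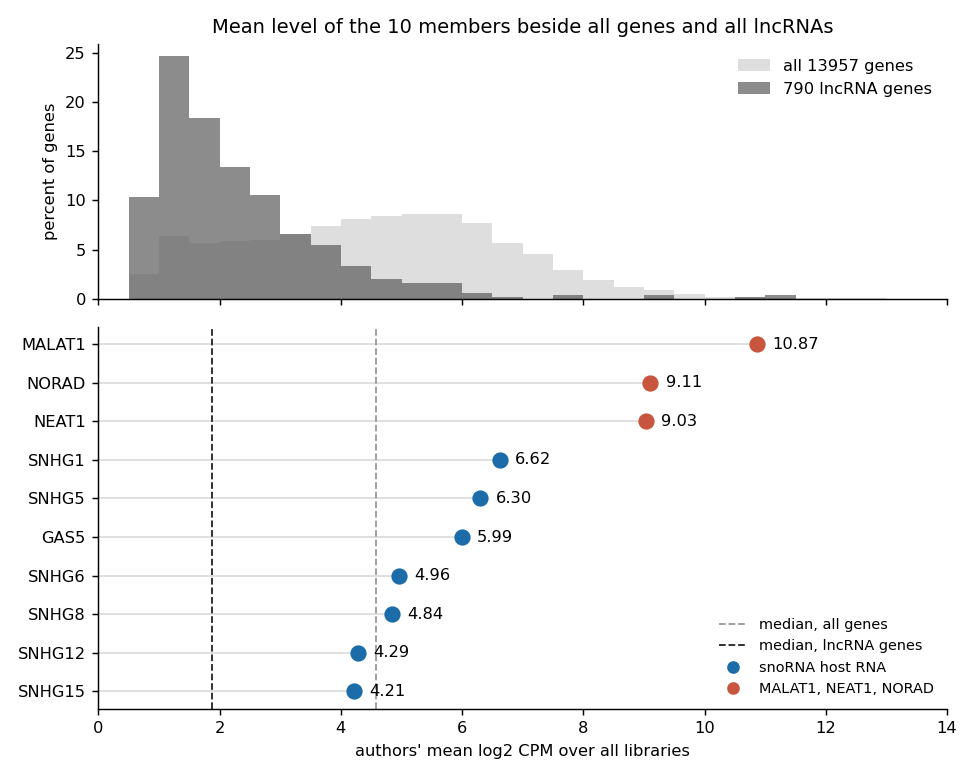
The upper panel gives the distribution of the authors' mean log2 CPM as percent of genes for all 13957 genes and for the 790 lncRNA genes, and the lower panel gives the value of each of the 10 RNAs on the same axis, with no error bars since the table holds pooled values only. MALAT1, NORAD and NEAT1 sit between 9.03 and 10.87, and the 7 hosts between 4.21 and 6.62.

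CPM grows with the length of an RNA, so levels were compared between genes per kilobase. With the lengths listed by the authors, MALAT1 had a level of 7.73 and NORAD of 6.67 on the log2(CPM per kb) scale, above every host. NEAT1, whose listed length is the greatest of the 10, had 4.52 and lay below SNHG6 (4.64) and SNHG1 (4.63). GAS5 had 3.72, SNHG5 2.64, SNHG15 2.24, SNHG12 2.20 and SNHG8 2.12 on the same scale. The median of the hosts was 2.64, close to the median of all genes (2.43) and above that of lncRNAs (0.34). It was lower than MALAT1 by 5.09, lower than NORAD by 4.03 and lower than NEAT1 by 1.88 on the log2 scale.

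The spliced, canonical lengths raise most of the hosts. On the log2(CPM per kb) scale SNHG1 then stood at 6.40, GAS5 at 6.37 and SNHG5 at 5.90, while SNHG6 stood at 4.10, SNHG12 at 3.38, SNHG15 at 2.63 and SNHG8 at 2.22. MALAT1 was at 7.49 and NORAD at 6.67 and both remained above all 7 hosts, but NEAT1 at 4.52 was now below SNHG1, GAS5 and SNHG5. NORAD exceeded SNHG1 by only 0.27 and GAS5 by only 0.30 on that scale, gaps that cannot be set against a spread between libraries here. The median host was lower than MALAT1 by 3.39, lower than NORAD by 2.58 and lower than NEAT1 by 0.43. Thus MALAT1 and NORAD were above the hosts with either length, whereas the place of NEAT1 among the hosts turned on the length used. The table does not show which transcripts the reads came from. Where counted reads fell outside the canonical exons, as in retained introns, the canonical length overstates the level of a host. The canonical MALAT1 transcript runs 1900 bases beyond the tRNA-like small RNA, and a shorter length would raise its level. The size of either effect was not tested. NEAT1 has 9 annotated transcripts of 512 to 22743 bases, and its short and long forms share their 5′ end, so they could not be told apart. Both of its lengths used above are near that of the long form. A shorter length would raise its level per kb, and none was tried.

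**Figure D3:**
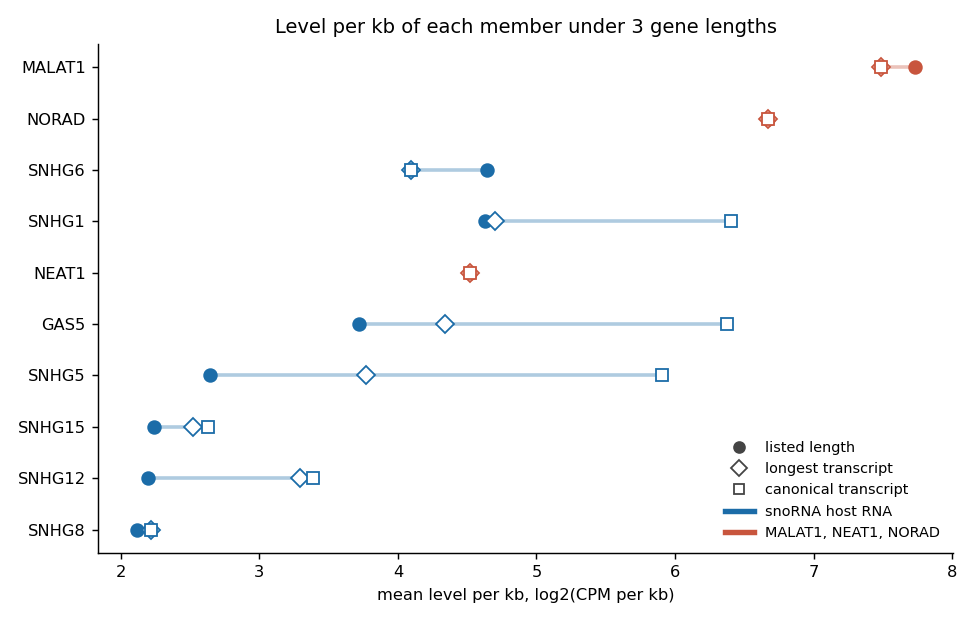
Mean level of each RNA as log2(CPM per kb) with the length listed by the authors (filled circles), the longest GENCODE transcript (diamonds) and the canonical transcript (squares). The 3 symbols of MALAT1, NEAT1 and NORAD lie close together, whereas SNHG5 moves from 2.64 to 5.90 and GAS5 from 3.72 to 6.37. For NEAT1 all 3 lengths are near that of its long form (22743 bases), and its shorter transcripts were not tried.

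The 7 hosts were then placed among 28 genes of the table listed by name as snoRNA host lncRNAs. These are the genes with an SNHG symbol and a number, GAS5, ZFAS1, DANCR and EPB41L4A-AS1. The list was not made from the snoRNAs found in each gene, so other host lncRNAs may be missing. On the log2(CPM per kb) scale with listed lengths, SNHG19 was highest at 5.26, and SNHG6, SNHG1, GAS5 and SNHG5 held positions 4, 5, 8 and 14. The listed length of SNHG19 is only 342 bases, and by share of reads it held position 19 of the 28 (3.71 log2 CPM). The position of SNHG6 rests on a listed length shorter than its canonical transcript. SNHG15, SNHG12 and SNHG8 held positions 17, 19 and 20. SNHG14, whose listed length is 122609 bases, was lowest at -5.57. As a share of reads SNHG29 was the highest of the 28 at 7.70 log2 CPM and SNHG25 the lowest at 1.33. The median of all 28 was 2.57 on the log2(CPM per kb) scale, beside 2.64 for the 7 members.

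**Figure D4:**
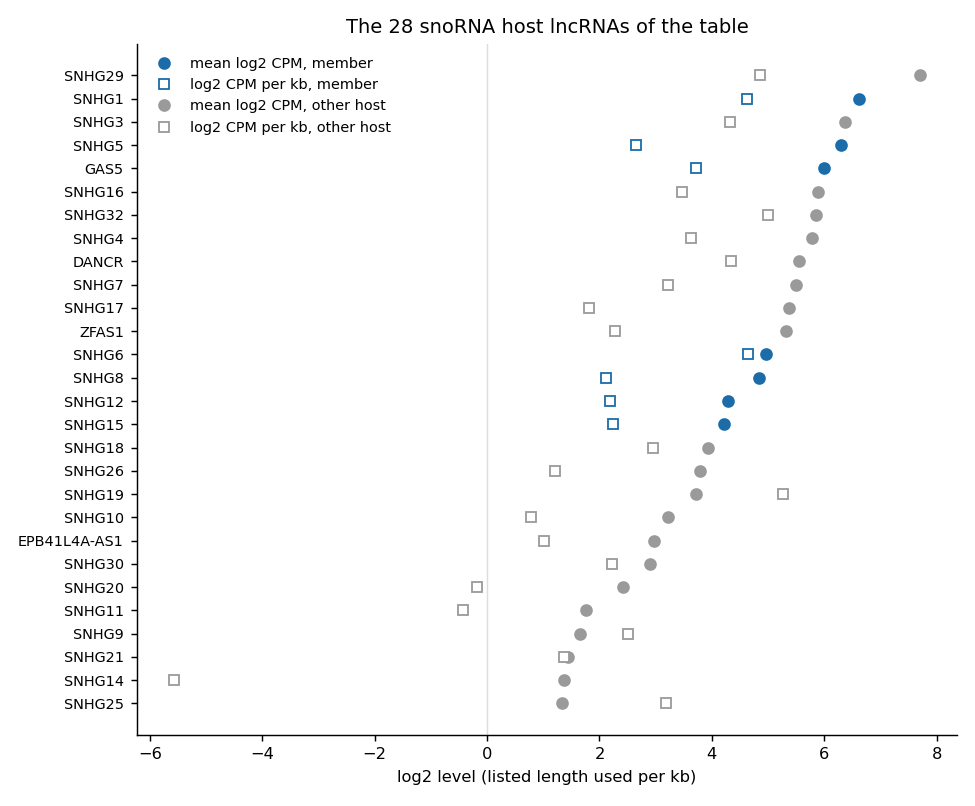
The 28 genes listed by name as snoRNA host lncRNAs, in order of the authors' mean log2 CPM (filled circles), with the level per kb from the listed length as open squares and the 7 members in blue. The members lie at positions 2, 4, 5 and 13 to 16 by share of reads, and their levels per kb run from 2.12 to 4.64.

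Carrying a snoRNA was more general than these genes. Of the 790 lncRNA genes, 31 (3.92%) held a GENCODE snoRNA on their own strand, and their median level was 2.24 on the log2(CPM per kb) scale, beside 0.31 for the other lncRNAs. Of 11603 protein-coding genes, 212 (1.83%) held one, with a median of 3.68 beside 2.51 for the others. GENCODE places 0 snoRNAs in GAS5, where RefSeq lists 11, so GAS5 is counted here among the other lncRNAs. The shares and medians depend on that annotation. These are descriptions across genes, which differ in many other ways.

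The 5′ ends of the hosts were examined next, because snoRNA host RNAs are known to start often with a terminal oligopyrimidine (TOP) tract, the element through which growth factor signalling controls the translation of ribosomal protein mRNAs. A tract was counted where a C followed by pyrimidines, 5 bases or more in all, began no more than 5 bases from the start of the transcript. Of the canonical transcripts, GAS5 and SNHG12 had such a tract, so that 2 of 7 hosts (28.6%, 95% Wilson interval 8.22% to 64.1%, counting error only) had one and none of MALAT1, NEAT1 and NORAD (0 of 3). The share was 14.7% for all genes and 15.8% for protein-coding genes. The 7 hosts were chosen by name and are not a random sample of genes, so a difference from these shares was not tested. At the commonest annotated start of each gene, a rule chosen after seeing the data, GAS5, SNHG6, SNHG8 and SNHG12 had a tract (4 of 7), beside 12.0% of all genes and 13.5% of lncRNAs under the same rule. The commonest start was used by 50 of 91 GAS5 transcripts but only by 3 of 8 for SNHG6, 5 of 15 for SNHG8 and 4 of 19 for SNHG12. Starts differ between the transcripts of a gene. A tract was found in 84.6% of the 91 GAS5 transcripts, in 62.5% of those of SNHG6, in 57.9% of those of SNHG12 and in 53.3% of those of SNHG8. It was found in 16.9% of SNHG5 transcripts, in 13.8% of SNHG1 transcripts and in none of the 14 of SNHG15. The first 30 bases show how the choice of start decides the count, with the tract in capitals.

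GAS5, canonical and commonest start (chr1:173867960-173867989, minus strand): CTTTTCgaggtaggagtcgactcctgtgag
SNHG12, commonest start (chr1:28581844-28581873, minus strand): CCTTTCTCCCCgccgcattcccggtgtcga
SNHG8, canonical start (chr4:118278708-118278737, plus strand): cggaatagcgtcatcagttctataagagag
SNHG8, commonest start (chr4:118278758-118278787, plus strand): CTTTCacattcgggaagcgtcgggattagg
SNHG1, canonical start (chr11:62855893-62855922, minus strand): ggcatggtatttaatcgtctccccggggag

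The start of SNHG8 gains a tract when it moves downstream by 50 bases, and the tract of SNHG12 at its commonest start is 11 bases long. The annotated starts, and not starts measured in these cells, were used.

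The 3′ ends of MALAT1 and NEAT1 are shown because they differ in kind from those of the other members. In the following stretches of hg38, 60 bases of the long RNA precede the tRNA-like small RNA annotated at its end, which is in capitals. In RefSeq the small RNA of MALAT1 is named MASCRNA.

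MALAT1 (chr11:65506057-65506173, plus strand): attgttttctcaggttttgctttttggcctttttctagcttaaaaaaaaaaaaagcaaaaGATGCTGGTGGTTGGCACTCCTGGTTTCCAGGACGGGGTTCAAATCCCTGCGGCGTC
NEAT1 (chr11:65445481-65445598, plus strand): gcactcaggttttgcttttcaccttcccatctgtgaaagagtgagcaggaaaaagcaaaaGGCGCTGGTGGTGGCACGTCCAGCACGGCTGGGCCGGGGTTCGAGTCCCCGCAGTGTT

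Both end in a genome-encoded A-rich stretch, which is known to fold back on the U-rich stretches before it into a triple helix that protects the RNA. The last 30 bases of MALAT1 hold 18 A with a longest run of 13, and those of NEAT1 hold 15 A with a longest run of 5. The small RNAs are 57 and 58 bases long and are identical at 40 aligned positions (67.8%), with 16 mismatches and 3 gaps. The small RNA of NEAT1 begins at the base after the listed end of NEAT1, while that of MALAT1 lies within the listed gene, whose end is 343 bases beyond it. The poly(A) signals AATAAA and ATTAAA were searched on the RNA strand in the last 50 bases of each canonical transcript. The canonical MALAT1 transcript ends 1900 bases beyond the small RNA, so its window is not the cut end shown above and is left out. Neither signal was found in NEAT1, SNHG5 or SNHG8, and at least 1 of them was found in NORAD, GAS5, SNHG1, SNHG6, SNHG12 and SNHG15. One of them was present in this window in 72.2% of all canonical transcripts and in 50.1% of those of lncRNAs.

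NORAD stood out among the members in its Pumilio motifs. The motif TGTANATA, the sequence that Pumilio proteins bind, was searched on the RNA strand of each canonical transcript. NORAD had 15 copies, or 2.78 per kb, and 99.96% of 13922 genes had fewer per kb. Of these copies 10 were TGTATATA, 4 were TGTAAATA and 1 was TGTACATA. They ran from base 819 to base 4657 of the transcript, with a median of 258.5 bases between the starts of neighbours. NEAT1 had 6 copies in its much longer RNA (0.264 per kb), SNHG6 had 1 and the other 7 members had 0. By number, only HELLPAR (37 copies), LNPEP (17) and HCG11 (16) had more than NORAD, and FLRT2 had as many. These 4 genes were chosen after their values were seen. HELLPAR had 2.23, HCG11 2.69, FLRT2 4.47 and LNPEP 6.78 log2 CPM, beside 9.11 for NORAD. At least 1 copy was present in 29.2% of all canonical transcripts and in 14.4% of lncRNAs. The window below (bases 1193 to 1312 of NORAD) holds 2 copies, in capitals.

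NORAD (chr20:36049707-36049826, minus strand): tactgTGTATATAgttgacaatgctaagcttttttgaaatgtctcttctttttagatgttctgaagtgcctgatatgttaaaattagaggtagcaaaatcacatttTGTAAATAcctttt

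**Figure D5:**
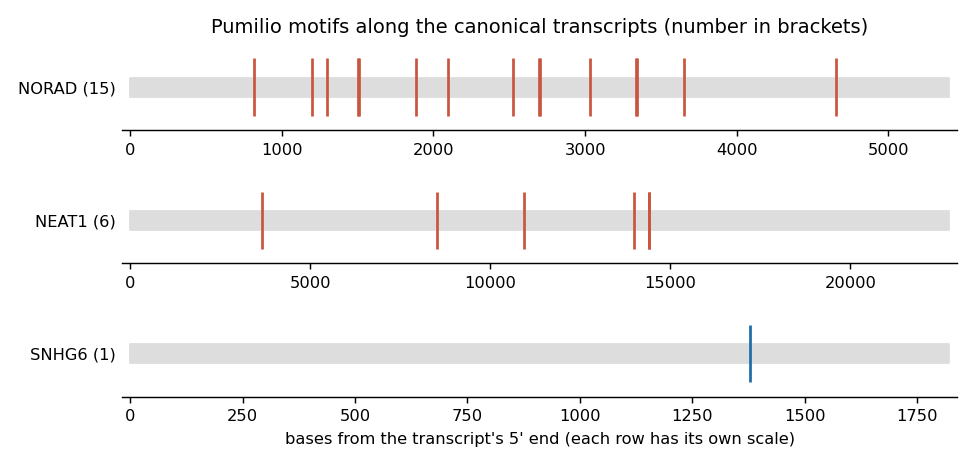
Positions of the motif TGTANATA (vertical lines) along the canonical transcripts of NORAD, NEAT1 and SNHG6 (grey bars), in bases from the 5′ end, each row on its own scale. The 15 copies in NORAD are spread over most of its 5401 bases, and NEAT1 and SNHG6 have 6 and 1.

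Genes of proteins that work with these RNAs are given on the log2(CPM per kb) scale by list. The 11 proteins of snoRNPs, the particles that carry snoRNAs, had a median of 5.75 and a range of 1.64 to 7.23. By share of reads FBL, the methyltransferase of box C/D particles (8.33 log2 CPM), and DKC1, the pseudouridine synthase of box H/ACA particles (8.14 log2 CPM), were the highest of the list, and the assembly factors NAF1 (3.90 log2 CPM) and SHQ1 (4.51 log2 CPM) the lowest. The 10 paraspeckle proteins had a median of 4.87, with the RNA-binding proteins HNRNPK (9.35 log2 CPM) and NONO (9.22 log2 CPM) highest and PSPC1 (5.87 log2 CPM) and CPSF6 (6.67 log2 CPM) lowest. The median of these proteins' mRNAs lay 0.35 above NEAT1 itself on the per kb scale, with NEAT1 at its listed length. That length is near that of its long form. A shorter one, which was not tried, would raise NEAT1.

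The list of 12 genes that act at the 3′ ends of MALAT1 and NEAT1 had a median of 3.21 on the log2(CPM per kb) scale. ELAC2, the RNase Z that cuts the other end of tRNA-like RNAs, took the largest share of reads (7.38 log2 CPM), followed by the RNase P subunit RPP30 (5.76 log2 CPM), and the subunits RPP38 (3.05 log2 CPM) and RPP21 (3.29 log2 CPM) the smallest. Of the NORAD partners, the RNA-binding proteins KHDRBS1 and RBMX had 8.31 and 8.10 log2 CPM and PUM2 had 6.82 log2 CPM. The 8 nonsense-mediated decay factors had a median of 3.08 on the log2(CPM per kb) scale. SMG5 (7.78 log2 CPM) and the helicase UPF1 (7.74 log2 CPM) were highest and UPF3B and UPF3A (both 5.13 log2 CPM) lowest.

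Other well-known lncRNAs gave a scale for the members. Of 15 on a fixed list, 11 were in the table, with a median of 1.10 on the log2(CPM per kb) scale and a highest value of 3.96. MALAT1, NORAD, NEAT1, SNHG6 and SNHG1 were above that highest value with listed lengths. SNHG6 was at 4.10 with its canonical transcript, and at 3.62, below that value, with its merged GENCODE exons. That highest value, of TUG1, was kept at its listed length, so these lengths of SNHG6 are not like for like. By share of reads TUG1 (7.30 log2 CPM) and OIP5-AS1 (6.41 log2 CPM) led the list, and FIRRE (1.00 log2 CPM) and LINC-PINT (1.05 log2 CPM) were lowest. TUG1 thus took a larger share of reads than any of the 7 hosts, of which SNHG1 had the most (6.62 log2 CPM). Of the 4 reference mRNAs, ACTB (12.63 log2 CPM) and EEF1A1 (11.56 log2 CPM) were highest and RPLP0 (9.98 log2 CPM) and GAPDH (10.58 log2 CPM) lowest, and their median was 9.21 on the log2(CPM per kb) scale, above MALAT1.

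Some members share sequence with other genes. Opposite-strand exons cover 83.7% of the merged exons of MALAT1, 8121 bases of them from TALAM1, and 58.9% of those of SNHG6, from MCMDC2. They cover 37.6% of SNHG8, from PRSS12, 7.75% of GAS5 and 0.188% of SNHG12. The libraries were stranded, but the strand setting of the counting is not given in the sources used here, and the part of antisense reads in these values was not tested. On the same strand, 13.2% of the merged exons of SNHG5 are shared with ENSG00000271793 and the pseudogene PKMP3. SNHG1, SNHG15, NORAD and NEAT1 share none on either strand. Upstream, SNHG1 begins 51 bases from the start of SLC3A2, which runs the other way and encodes an amino acid transporter subunit, and the 2 had levels of 4.63 and 5.74 on the log2(CPM per kb) scale. For GAS5 the start of ZBTB37 (-0.47 on that scale) lies 800 bases from the outermost annotated 5′ end. It falls inside the GAS5 gene and not upstream of it. Distances were taken in either direction from the outermost annotated start, and the neighbour of MALAT1 also starts inside the gene. Including MALAT1 and NORAD, 4 of the 10 members (40%) had an oppositely directed neighbour starting no more than 1000 bases away. That share was near those of all genes (32.1%) and of lncRNAs (38.0%).

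The labelled cell line was checked against its markers. VIM (10.45 log2 CPM), CD44 (10.57 log2 CPM) and CAV1 (10.25 log2 CPM), typical of mesenchymal-like breast cancer cells, took large shares of reads, whereas the epithelial genes CDH1 and EPCAM (both 3.68 log2 CPM) were below the median of the table. ESR1 and PGR, the hormone receptors that a triple-negative line should lack, have no row in the table, and ERBB2 had 6.49 log2 CPM.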

How the data were processed

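RNA was sequenced from 4 samples of the Fluc line of MDA-MB-231, 2 given cordycepin and 2 given DMSO. The authors used rsubread and the GRCh38.p13 build to obtain gene counts. The submitters' processing notes also name hg38, TopHat, HTSeq, DESeq and Cufflinks, without roles. The authors' deposited table gives, per gene, a length and a mean log2 CPM over all libraries, which were used. Its other value columns hold the authors' comparison of cordycepin with DMSO (a log2 fold change, F statistic, p-value and adjusted p-value), and were not used. It holds 0 further columns per sample. The normalization and low-count filter are not given in the sources used here. Replicate spread and depth are unknown, so no test was made.

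Levels per kb are the mean log2 CPM less log2 of the length in kb. Gene type, transcripts, snoRNAs and sequences came from GENCODE release 44 and hg38, and snoRNA names also from RefSeq. Of the gene IDs 99.7% were found in GENCODE. The listed length equalled the merged GENCODE exons for 73.7% of genes. Genes named are the 10 members and the 2 highest and 2 lowest of each list by mean log2 CPM. SNHG19 is named as the highest of its list per kb. Others are said to have been chosen after their values were seen or describe a neighbouring, overlapping or marker gene. The members and lists were chosen with earlier results of these data known. Interval, motif and length functions were tested on simulated data. Python 3.11.15, numpy 2.4.6, pandas 2.3.3, matplotlib 3.10.9 and biopython 1.88 were used. Alternatives were other lengths, other gene sets, the mean for the median, and other tract and snoRNA rules. Some results for single genes and sequences are not reported here.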

Additional observations from a re-analysis of the deposited data

How the results depend on the processing

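The table holds no values per library, so no sample could be left out. No paired analysis was possible because the results come from pooled means and from no test between groups. With no replicate spread, a log2 value was taken as moved when it changed by more than 1.5 times, a percentile when it changed by more than 10 points, a count, a motif density or a share of all genes when it changed by more than 1.5 times, and the share of the 7 hosts with a tract when it left its 95% Wilson interval, which is wide. Of 98 alternative values 64 stayed within these limits, 34 moved and 0 changed sign. Some of those that stayed could not have moved, because the alternative used the same length or sequence. For example, NORAD has 1 transcript, and the merged GENCODE exons of NEAT1, SNHG5 and SNHG12 equal their listed lengths. The Pumilio densities were also the same because the longest transcript gave the canonical result. The tally is therefore not a measure of stability. Only the differences between the hosts as a set and the 3 RNAs were able to change sign. Single pairs were not among these values. From listed to canonical length, NEAT1 minus GAS5 went from 0.80 to -1.85 on the log2(CPM per kb) scale. NEAT1 minus SNHG5 went from 1.88 to -1.38 and NEAT1 minus SNHG6 from -0.12 to 0.43, and the other pairs kept their sign. The alternatives with the merged GENCODE exons, the commonest starts and RefSeq snoRNAs were chosen after seeing the data. The level per kb of the median host less that of MALAT1 was -5.09, and it became -3.72 with the longest transcript, -3.39 with the canonical transcript and -5.91 without length scaling. Against NEAT1 it was -1.88, and it became -0.75, -0.43 and -4.07 in the same order. Against NORAD it was -4.03, and it became -2.90 with the longest and -2.58 with the canonical transcript. Against the median of the 3 RNAs, which is NORAD, the values were the same as those, and taking means in place of medians gave -3.14. The canonical length moved the level per kb of 4 members (GAS5, SNHG1, SNHG5 and SNHG12), the longest transcript that of 3 (GAS5, SNHG5 and SNHG12) and the merged GENCODE exons that of SNHG6 alone. The number of snoRNAs was 16 in GENCODE and 29 in RefSeq. The share of hosts with a tract was 28.6%, and it fell to 14.3% (1 of 7) with 6 pyrimidines and was 57.1% at the commonest start. Both are inside that interval, which is so wide that this limit says little about how stable the share is. Other definitions of the tract gave shares of 4.91% (at the first base only), 22.6% (4 pyrimidines) and 8.88% (6 pyrimidines) of all genes.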

Other observations

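Only 4 snoRNA genes had rows of their own in the table, and none of them lies within a member. They were SNORD3A (2.44 log2 CPM), SNORD3B-2 (1.75 log2 CPM), SNORA73B (1.07 log2 CPM) and SNORD104 (1.02 log2 CPM). SNORD3A and SNORD3B-2 are copies of the U3 snoRNA, which acts in the cleavage of the ribosomal RNA precursor, and reads from such near-identical copies are uncertain. These 4 genes were chosen after their values were seen.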
